A study of Mus musculus with 8 samples.

Results

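The Toll-like receptors of mouse brown adipose tissue, together with the lipopolysaccharide-binding protein Lbp, were followed across 8 RNA-seq libraries. They comprise 10 of the 41388 genes counted: the cell-surface receptors Tlr1, Tlr2, Tlr4 and Tlr6, the endosomal receptors Tlr3, Tlr7, Tlr8, Tlr9 and Tlr13, and the secreted Lbp. These 10 genes were chosen by symbol from values measured in these same libraries, with the difference between the genotypes known. Their levels and differences are therefore given as a description, and no test of them is used as support. The rule is a list of names with no threshold, and Tlr5, Tlr11 and Tlr12 are the mouse receptors of the lists outside it.

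The tissue was taken from C57BL/6J mice held at room temperature on regular chow, and the labels used here give no age. In the 4 ANKO mice, Cre under the adiponectin promoter was combined with floxed Nampt, the gene of the enzyme that starts NAD+ salvage from nicotinamide. The 4 WT mice, labelled wild type, carried floxed alleles as well (flox/flox). Adiponectin-Cre acts in adipocytes, so macrophages, endothelial cells and other cells of the depot would be expected to keep an intact Nampt gene in ANKO mice.

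Toll-like receptors recognise conserved molecules of microbes and of damaged cells. Receptors at the cell surface bind lipoproteins and lipopolysaccharide, and receptors in endosomes bind nucleic acids after Unc93b1 has carried them there. The adaptors Myd88 and Ticam1 then pass the signal to NF-kappa-B and to interferon regulatory factors. Macrophages carry most of these receptors, while adipocytes are known for Tlr4 in particular. Lbp transfers lipopolysaccharide to Cd14 and on to Tlr4 with Ly96. It is known mainly as a liver acute-phase protein and is also made by adipocytes.

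The libraries held 5738067 to 49697156 gene counts, and WT was sequenced more deeply, with a ratio of median totals of 3.44. Levels are in CPM (counts per 1e+06) on scaled library sizes. A level of 3 counts was 0.0626 CPM in the deepest library, WT4, and 0.527 CPM in the shallowest, ANKO4, counting error only. Nampt fell from 508 ± 42.2 CPM in WT to 72.3 ± 4.67 CPM in ANKO (SD, n = 4 each), with an edgeR quasi-likelihood adjusted p of 1.51e-07. The adipocyte markers were read at 15844 to 21238 CPM in sum in WT and at 8307 to 11850 CPM in ANKO. The brown adipocyte markers summed to 5865 to 13008 CPM in WT and to 797 to 3014 CPM in ANKO. Skeletal muscle markers stood apart: their sum was 863, 2520, 111 and 29.1 CPM in WT1 to WT4 and 8883 to 13418 CPM in ANKO. WT1 and WT2 also lay apart from WT3 and WT4 on the second principal component.

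All 10 genes passed the filter on low counts. The fit over all genes called all 10 higher in ANKO at an adjusted p under 0.05, where 58.2% of the 16705 tested genes were called in either direction, 30.6% higher and 27.6% lower. In all 10, every ANKO library lay above every WT library, as it did for 28.7% of tested genes. Nothing is read from these counts, because the genes were selected on this contrast. Their log2 fold changes ran from 0.83 to 4.46 with a median of 3.12, beside a median of -0.01 over all tested genes.

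**Figure D1:**
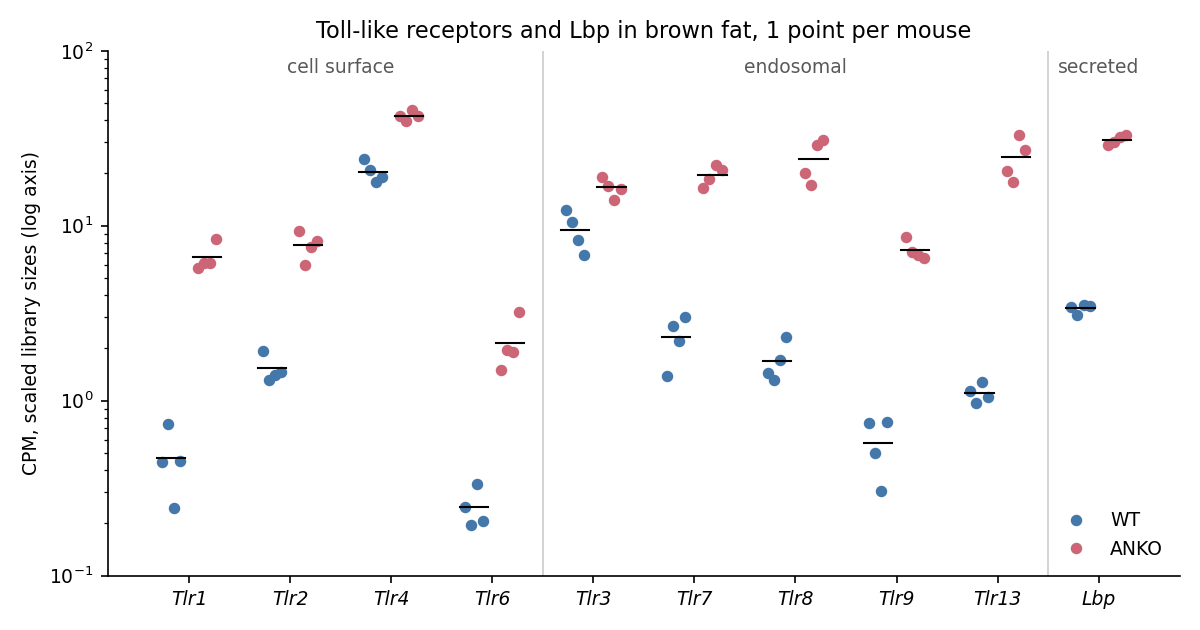
Levels of the 9 receptors and Lbp in CPM on a log axis, with 1 point per mouse (4 WT, 4 ANKO) and a line at each group mean. The groups do not overlap for any of the 10 genes, and the separation is narrowest for Tlr3 and Tlr4.

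Of the surface receptors, Tlr4 was the most abundant. Tlr4, the receptor of lipopolysaccharide (ENSMUSG00000039005, chromosome 4, 66827584 to 66930284, plus strand, GRCm38), was at 24.0, 20.7, 17.9 and 18.9 CPM in WT1 to WT4 and at 42.3, 39.6, 45.7 and 42.5 CPM in ANKO1 to ANKO4. The ANKO values lay close together, and the lowest was well above WT1, the highest WT library. Tlr4 was 2.09-fold higher in ANKO (log2 fold change 1.06, SE 0.11). Tlr2, which recognises lipoproteins as a partner of Tlr1 or Tlr6 (ENSMUSG00000027995, chromosome 3, 83836273 to 83841767, minus strand), was at 1.93, 1.32, 1.40 and 1.46 CPM in WT and at 9.34, 5.99, 7.57 and 8.16 CPM in ANKO. WT1 was the highest WT library and ANKO2 the lowest ANKO library, without overlap. The difference was 5.14-fold (log2 fold change 2.36, SE 0.20).

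The partners of Tlr2 were scarce in WT. Tlr1 (ENSMUSG00000044827, chromosome 5, 64924811 to 64932761, minus strand) was at 0.446, 0.738, 0.244 and 0.455 CPM in WT, from 8 to 20 counts a library, and at 5.70, 6.11, 6.15 and 8.45 CPM in ANKO. ANKO4 stood above the other ANKO libraries, and the groups were far apart. The difference was 13.9-fold (log2 fold change 3.80, SE 0.30). Tlr6 (ENSMUSG00000051498, chromosome 5, 64953106 to 64960048, minus strand) was at 0.248, 0.194, 0.336 and 0.205 CPM in WT, from 5 to 11 counts a library, and at 1.49, 1.96, 1.89 and 3.21 CPM in ANKO. ANKO4 was again the highest, with 22 counts behind its value. The difference was 8.19-fold (log2 fold change 3.03, SE 0.33). Tlr1 and Tlr6 are neighbouring paralogs, 20345 bases apart, and how reads that match both were counted is not given in the sources used here.

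RefSeq promoter windows of the same build were used to show the sequence before transcript starts of the receptors (GRCm38.p6). They were matched for 7 of the 10 genes, in 9 windows of 250 bases before a transcript start. The 3 windows that end exactly at the gene start in the files, those of Tlr6, Tlr8 and Tlr9, are printed, and they hold no exon of the gene. Each runs 5′ to 3′ on the strand of its gene, and capitals mark a PU.1 core (GAGGAA, either strand) or an NF-kappa-B site (GGGNNNNNCC). PU.1 is a transcription factor of macrophages and other myeloid cells.
Tlr6, chr5:64960049-64960298, minus strand: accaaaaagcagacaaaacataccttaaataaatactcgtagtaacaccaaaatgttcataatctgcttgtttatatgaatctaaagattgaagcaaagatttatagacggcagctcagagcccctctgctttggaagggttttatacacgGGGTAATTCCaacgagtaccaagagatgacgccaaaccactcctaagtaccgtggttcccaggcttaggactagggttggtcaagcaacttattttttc
Tlr8, chrX:167264330-167264579, minus strand: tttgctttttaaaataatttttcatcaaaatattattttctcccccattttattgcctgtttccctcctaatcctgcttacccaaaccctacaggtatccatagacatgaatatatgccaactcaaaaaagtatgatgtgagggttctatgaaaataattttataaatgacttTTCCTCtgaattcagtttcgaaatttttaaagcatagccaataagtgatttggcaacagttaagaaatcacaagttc
Tlr9, chr9:106222348-106222597, plus strand: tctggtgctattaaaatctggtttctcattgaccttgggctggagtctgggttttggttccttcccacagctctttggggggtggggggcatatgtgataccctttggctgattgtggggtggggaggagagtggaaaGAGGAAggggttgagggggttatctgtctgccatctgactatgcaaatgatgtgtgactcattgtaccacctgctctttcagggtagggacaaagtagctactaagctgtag
The marked NF-kappa-B site begins 99 bases before the start of Tlr6, and the PU.1 cores begin 77 bases before Tlr8, on the opposite strand, and 112 bases before Tlr9. GAGGAA lay in 4 of the 9 windows, for 4 genes (Tlr1, Tlr8, Tlr9 and Tlr13), and in 23.2% of all 32851 windows of this length. GGGNNNNNCC lay in 3 of the 9, for Tlr2, Tlr3 and Tlr6, and in 45.8% of all windows. The interferon-stimulated response element TTTCNNTTTC lay in 1, another Tlr6 window, and in 2.98% of all. The GAS element TTCNNNGAA, a STAT site, lay in 2, for Tlr1 and Tlr8, and in 7.02% of all. For both Tlr1 windows and the other Tlr6 window, the bases just after the start lay in no GENCODE M21 transcript of the gene. The starts of these windows, and so the positions of their matches, are less certain. The windows of Tlr2, Tlr3 and Tlr13 overlapped the span of their gene as counted. So did the Tlr1 window at 64932700 to 64932949 and, over its whole length, the other Tlr6 window. The matches of Tlr3 and of that Tlr6 window lay inside the gene span. Both strands were searched, the motifs were picked with the results known, and a match describes letters, not binding.

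Among the endosomal receptors, Tlr13 differed the most. Tlr13, which in mice recognises bacterial ribosomal RNA (ENSMUSG00000033777, chromosome X, 106143204 to 106160493, plus strand), was at 1.14, 0.971, 1.28 and 1.05 CPM in WT and at 20.5, 17.9, 33.0 and 27.2 CPM in ANKO. The WT libraries were nearly level, and ANKO3 and ANKO4 stood above ANKO1 and ANKO2. The difference was 22.1-fold (log2 fold change 4.46, SE 0.23). Tlr8, an RNA receptor best known from human cells (ENSMUSG00000040522, chromosome X, 167242696 to 167264329, minus strand), was at 1.44, 1.32, 1.71 and 2.32 CPM in WT and at 20.0, 17.2, 28.9 and 30.7 CPM in ANKO. The same pair of ANKO libraries was high, and the groups were far apart. The difference was 13.9-fold (log2 fold change 3.80, SE 0.25).

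Tlr7, a receptor of viral and self RNA on the same stretch of the X chromosome (ENSMUSG00000044583, 167304929 to 167330558, minus strand), was at 1.39, 2.68, 2.20 and 3.03 CPM in WT and at 16.5, 18.6, 22.3 and 20.7 CPM in ANKO. WT1 was the lowest and ANKO3 the highest, with no overlap. The difference was 8.24-fold (log2 fold change 3.04, SE 0.22). Tlr9, the receptor of unmethylated CpG DNA (ENSMUSG00000045322, chromosome 9, 106222598 to 106226883, plus strand), was at 0.743, 0.505, 0.305 and 0.751 CPM in WT, from 10 to 33 counts a library, and at 8.61, 7.03, 6.81 and 6.56 CPM in ANKO. Here ANKO1 was the highest ANKO library. The difference was 12.6-fold (log2 fold change 3.66, SE 0.27).

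Tlr3 differed the least of the 10. Tlr3, which recognises paired strands of viral RNA and signals through Ticam1 alone (ENSMUSG00000031639, chromosome 8, 45395665 to 45410608, minus strand), was at 12.2, 10.5, 8.24 and 6.80 CPM in WT and at 19.1, 16.9, 14.1 and 16.3 CPM in ANKO. WT1 and WT2, the WT libraries with more muscle RNA, were above WT3 and WT4, and ANKO3 lay just above WT1. The order did not follow the muscle marker sum otherwise. WT2, with the highest sum in WT (2520 CPM), lay below WT1 (863 CPM). ANKO1 had the lowest sum in ANKO (8883 CPM) and the highest Tlr3, and ANKO3 the highest sum (13418 CPM) and the lowest Tlr3. The difference was 1.78-fold (log2 fold change 0.83, SE 0.19). With the skeletal muscle marker level as a covariate it was 0.28 (SE 0.26), while the values of the other 9 genes ran from 0.83 for Tlr4 to 4.44 for Tlr13.

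Lbp varied little within each genotype. Lbp (ENSMUSG00000016024, chromosome 2, 158306493 to 158332852, plus strand) was at 3.42, 3.11, 3.51 and 3.46 CPM in WT and at 28.9, 30.1, 32.3 and 32.8 CPM in ANKO. The groups were far apart. The difference was 9.15-fold (log2 fold change 3.19, SE 0.11). Hepatocyte markers, of the cell type that makes most circulating LBP, summed to 4.70 to 16.4 CPM in WT and to 11.5 to 39.3 CPM in ANKO, with 2 of 5 tested markers higher, none at 0 in every library, and Ttr at 0 in some. Their part in the Lbp difference was not tested.

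Per kilobase of transcript, the order of the genes differed between the genotypes. In WT, Tlr4 led at 3.67 ± 0.487 RPKM, followed by Tlr3 at 2.15 ± 0.544 RPKM, and the other 8 genes lay at 0.698 RPKM or less. In that order each step from Tlr4 to Tlr3, from Tlr3 to Lbp and from Tlr8 to Tlr13 separated all 4 libraries, and all other neighbours overlapped. In ANKO, Tlr4 was at 7.66 ± 0.445 RPKM and was followed by Tlr8 at 6.75 ± 1.85, Lbp at 6.42, Tlr13 at 6.04, Tlr7 at 4.78 and Tlr3 at 3.78 RPKM, all overlapping with their neighbours. Only Tlr2, below Tlr3, and Tlr6, in last place at 0.821 RPKM, were separated from the gene above them.

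The summed RPKM of the 9 receptors was 7.19 to 9.24 in WT and 31.8 to 40.7 in ANKO. Endosomal receptors made up 43.4 to 45.8% of that sum in WT and 61.5 to 66.0% in ANKO, and surface receptors the rest. The share of Tlr4 was 45.4 ± 0.952% in WT and 20.8 ± 1.63% in ANKO, and that of Tlr3 26.3 ± 4.21% and 10.4 ± 2.24%. Over the same libraries the share of Tlr13 was 3.41 ± 0.674% and 16.1 ± 2.77%, and that of Tlr8 5.99 ± 2.02% and 18.01 ± 2.92%. So the pair that dominated in WT, Tlr4 and Tlr3, held a smaller part of the receptor transcripts in ANKO, although both were higher in CPM.

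**Figure D2:**
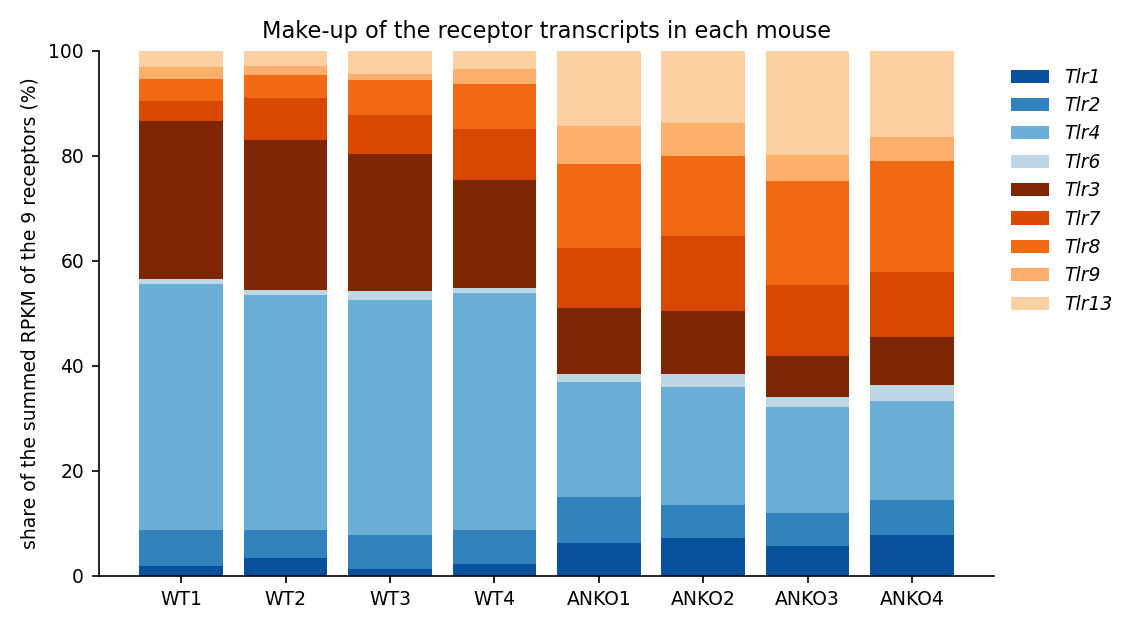
Share of the summed RPKM of the 9 receptors held by each, as stacked bars for the 8 mice, with surface receptors in blue and endosomal receptors in orange. Tlr4 and Tlr3 fill most of each WT bar, and Tlr8, Tlr13 and Tlr7 most of the endosomal part of each ANKO bar.

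Macrophage markers moved with these genes. Their sum over 15 genes was 191 to 286 CPM in WT and 1420 to 2001 CPM in ANKO, with 14 of 15 higher in ANKO by edgeR and none at 0 in any library. In bulk tissue fewer or more cells of a type and less or more RNA per cell cannot be told apart. Other leukocyte markers moved too: T and NK cell markers summed to 3.02 to 4.42 CPM in WT and 29.6 to 49.1 CPM in ANKO, with 8 of 8 higher and none at 0 in any library. B cell markers summed to 1.89 to 5.25 and 6.12 to 18.1 CPM, with 5 of 6 tested higher. Plasmacytoid dendritic cell markers summed to 2.78 to 4.46 and 5.39 to 8.60 CPM, with 1 of 2 tested higher and Klk1 and Cd300c at 0 in some libraries. Neutrophil markers summed to 1.04 to 1.37 and 6.22 to 10.5 CPM, with the 1 tested marker, Csf3r, higher (log2 fold change 3.28). Csf3r, at a mean of 0.737 CPM in WT and 7.37 CPM in ANKO, held most of the sum, and the other neutrophil markers were too low to test. Ly6g was at 0 in every library, and S100a9, Cxcr2, Retnlg, Ngp, Camp, Mmp8 and Mpo were at 0 in some. Conventional dendritic cell markers, at 71.0 to 86.6 and 95.9 to 134 CPM, were higher for 6 of 7 genes and lower for 1. The lower one, Zbtb46, held most of the WT sum, at a mean of 70.4 CPM in WT and 54.1 CPM in ANKO. Most of the rise in the sum came from Itgax, at 1.23 and 39.8 CPM. Endothelial markers, at 1016 to 1157 and 806 to 939 CPM, were higher for 1 of 8 and lower for 4. Fibroblast markers, at 906 to 1308 and 4103 to 7681 CPM, were higher for 7 of 8 genes. The part of these cells in the receptor levels was not tested.

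Expressed per 1000 CPM of the 15 macrophage markers in the same library, the receptors separated into different patterns. Tlr4 went from 90.1 ± 26.6 in WT to 25.4 ± 2.43 in ANKO and Tlr3 from 42.4 ± 17.4 to 10.1 ± 2.44, with every ANKO library below every WT library. Tlr13 went from 4.84 ± 0.996 to 14.4 ± 1.84 and Tlr8 from 7.19 ± 0.864 to 14.1 ± 2.30, with every ANKO library above every WT library. The other 6 genes overlapped between the genotypes, among them Lbp at 14.7 ± 2.38 and 18.5 ± 2.07 and Tlr7 at 9.80 ± 2.16 and 11.6 ± 1.07. With 5 general macrophage markers alone as the base (Adgre1, Csf1r, Cd68, Mpeg1 and Laptm5), the log2 differences of Tlr6, Tlr7 and Lbp changed sign, to -0.35, -0.32 and -0.24, so no direction is given for these 3. Tlr2, which overlapped on the first base, lay lower in every ANKO library on the second, with a log2 difference of -1.10. All genes in a library share its base, so the change of base lowered every log2 difference by the same amount. That of Tlr13 was 0.998 against 1.58, and that of Tlr8 was 0.38 against 0.97. On the second base Tlr8 overlapped between the genotypes and Tlr13 did not.

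**Figure D3:**
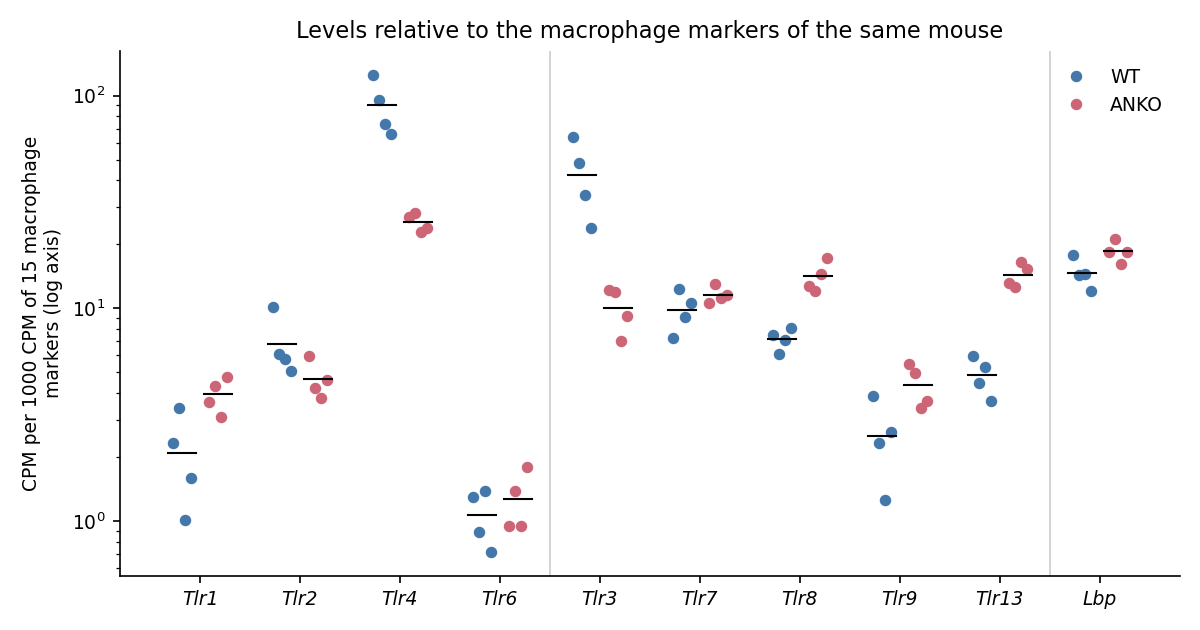
CPM of each gene per 1000 CPM of 15 macrophage markers in the same mouse, on a log axis, with 1 point per mouse and a line at each group mean. Tlr4 and Tlr3 are lower in ANKO and Tlr8 and Tlr13 higher without overlap on this base, while the other 6 genes overlap; on 5 general macrophage markers Tlr8 overlaps as well.

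Within the genotypes, the 10 genes did not vary as 1 block. After the group means were taken off, Pearson r over the 8 libraries was 0.77 between Lbp and Tlr8, 0.75 between Lbp and Tlr13 and 0.69 between Tlr8 and Tlr13, but -0.79 between Tlr3 and Tlr7. These are descriptions, because all genes in a library share its depth and dissection. Lbp had 69 to 152 counts a library in WT and 225 to 754 in ANKO. Its spread was no wider than counting error alone gives in WT, and about as wide in ANKO. The r values of Lbp may therefore describe sampling noise. Of 12325 genes compared in this way, Nr2c2 (0.98), Zfp748 (0.97) and Tmem154 (0.96) followed Lbp most closely. Tmem98 (0.99), 2310030G06Rik (0.99) and Dtymk (0.98) followed the mean of the surface receptors. Dmxl2 (0.97), Tpra1 (0.97) and the macrophage marker Cd68 (0.97) followed that of the endosomal receptors. These are the highest of 12325 values over 8 libraries, where a high r can arise by chance. No chance level was computed, so no shared regulation is read from them.

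The rest of the pathway was examined through 121 listed genes, of which 108 were tested. By edgeR's quasi-likelihood test 64 rose and 12 fell in ANKO, with a median log2 fold change of 0.69, where 30.6% of all tested genes were called higher and 27.6% lower around a median of -0.01. With the muscle covariate 44 were called higher and 5 lower. The lists were drawn up with earlier results of these data known, so their counts are a description. The count of each list below stands beside the 30.6% and 27.6% of all tested genes.

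**Figure D4:**
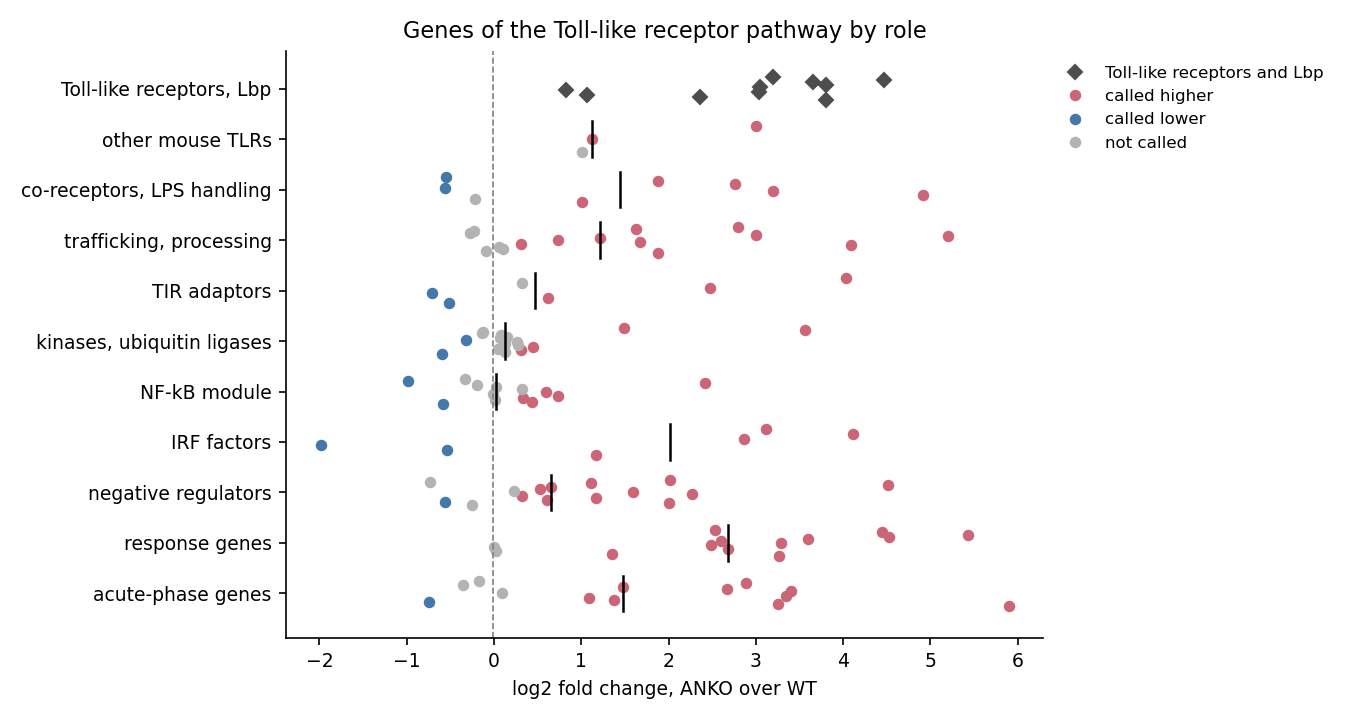
Log2 fold change, ANKO over WT, of the 10 genes (diamonds) and of the 108 tested pathway genes by role, coloured by call at an adjusted p under 0.05, with a bar at each list's median and a dashed line at the median of all tested genes. The lists run from a median of 0.02 in the NF-kappa-B module to 2.68 among response genes.

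Of the 3 other mouse receptors, 2 rose. Tlr12, which with Tlr11 recognises profilin of protozoan parasites, went from 0.172 ± 0.0539 to 1.447 ± 0.593 CPM (log2 fold change 3.01, SE 0.39, adjusted p = 1.11e-04). Tlr11 went from 0.783 to 1.56 CPM (log2 fold change 1.12, SE 0.43, adjusted p = 0.0438), and this call was lost with the muscle covariate (0.25) and on leaving out WT2, WT3, WT4, ANKO1, ANKO3 or ANKO4 (0.72 to 1.22), or both WT3 and WT4 (0.59). Tlr5, the flagellin receptor, was at 5.84 ± 3.74 and 11.6 ± 3.44 CPM (log2 fold change 1.005, SE 0.41, adjusted p = 0.0573) and was not called.

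The partners of Tlr4 and Lbp did not move together. Of 8 tested co-receptors and lipopolysaccharide-handling genes, 5 rose and 2 fell, with a median of 1.44. Cd14, which takes lipopolysaccharide from Lbp, rose from 5.88 ± 0.840 to 11.8 ± 2.23 CPM (log2 fold change 1.005, SE 0.17, adjusted p = 6.83e-04), a call lost with the muscle covariate at 0.71. Ly96, without which Tlr4 does not bind lipopolysaccharide, was at 2.68 ± 0.656 and 2.32 ± 0.126 CPM (log2 fold change -0.22, SE 0.22, adjusted p = 0.403). Cd180 and Ly86, a receptor pair related to Tlr4 and Ly96, rose by log2 fold changes of 4.92 (SE 0.33) and 3.20 (SE 0.16). Aoah, which inactivates lipopolysaccharide, rose by 2.76 (SE 0.18). The lipid receptors Cd36 and Scarb1, both abundant in adipocytes, fell by 0.57 and 0.55 on the log2 scale, and with the muscle covariate both calls were lost, at -0.27 for Cd36 and -0.45 for Scarb1. Cd36 was also not called without WT3 and WT4 (-0.42).

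Of 15 genes of receptor trafficking and processing, 10 rose and 0 fell, with a median of 1.22. These 10 calls stand beside 58.2% of all tested genes called, 30.6% higher and 27.6% lower. Unc93b1, the escort of endosomal receptors, rose from 30.0 ± 6.37 to 111 ± 10.9 CPM (log2 fold change 1.88, SE 0.15, adjusted p = 5.38e-06). Ctss, a protease that cleaves endosomal receptors and a macrophage gene, rose from 10.1 ± 1.49 to 371 ± 93.0 CPM (log2 fold change 5.20, SE 0.22). Slc15a3, a lysosomal transporter of muramyl peptides and histidine, rose by 4.09 (SE 0.19), and Pld4, a nuclease that removes ligands of Tlr9, by 2.79 (SE 0.17).

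The central adaptors were lower. Myd88, used by every Toll-like receptor but Tlr3, fell from 25.9 ± 3.56 to 18.1 ± 1.37 CPM (log2 fold change -0.52, SE 0.12, adjusted p = 0.00367). Ticam1, the adaptor of Tlr3, fell from 24.0 ± 4.71 to 14.7 ± 1.84 CPM (log2 fold change -0.71, SE 0.16, adjusted p = 0.00307). Both calls were lost with the muscle covariate (-0.17 and -0.28) and when all libraries were thinned to the lowest total (-0.32 and -0.42). The other called adaptors rose: Pik3ap1 by 4.03 (SE 0.20), Ticam2 by 2.48 (SE 0.30) and Tirap, the bridge from Tlr2 and Tlr4 to Myd88, by 0.62 (SE 0.13), the last not called with the covariate (0.41).

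Among 16 kinases and ubiquitin ligases, 4 rose and 2 fell, with a median of 0.12, so that 6 of 16 were called beside 58.2% of all tested genes. Ikbke rose by 3.56 (SE 0.22), Map3k8 by 1.49 (SE 0.15) and Traf3 by 0.44 (SE 0.08), while Irak1, the kinase next to Myd88, fell by 0.60 and Map3k7 by 0.33 on the log2 scale. In the NF-kappa-B module 5 of 13 rose and 2 fell, around a median of 0.02, and its 7 calls stand beside the same share. Nfkbie rose by 2.41 (SE 0.35), Nfkb2 by 0.73 (SE 0.12) and Ikbkb by 0.43 (SE 0.08). Chuk fell by 0.58 and Nfkbiz by 0.98 on the log2 scale. With the muscle covariate the calls of Traf3 (0.39), Nfkb2 (0.60) and Map3k7 (-0.11) were lost. That of Map3k7 was also lost without ANKO3 (-0.31), after thinning (-0.32) and without WT3 and WT4 (-0.22).

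All 6 interferon regulatory factors were called, in both directions. Irf7, which Tlr7 and Tlr9 activate, rose from 10.2 ± 1.32 to 176 ± 12.6 CPM (log2 fold change 4.11, SE 0.12, adjusted p = 5.19e-08). Irf8 rose by 3.11 (SE 0.15) and Irf5 by 2.86 (SE 0.16). Irf3, which acts after Ticam1, fell from 68.3 ± 3.45 to 46.9 ± 1.98 CPM (log2 fold change -0.54, SE 0.08). After thinning Irf3 was at -0.25 with an edgeR adjusted p of 0.146, so that 5 of the 6 were then called. Irf4, also a factor of brown adipocytes, fell from 171 ± 48.7 to 42.8 ± 20.97 CPM (log2 fold change -1.99, SE 0.37).

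Of 15 negative regulators, 11 rose and 1 fell, with a median of 0.65. Inpp5d rose by 2.01 (SE 0.12), Socs1 by 2.27 (SE 0.25) and Tnfaip3, which removes ubiquitin from the pathway, by 2.0 (SE 0.15). Tollip fell by 0.56 on the log2 scale, a call lost with the muscle covariate (-0.07). Of 20 response genes 13 were tested, and 11 rose and 0 fell, with a median of 2.68. The 7 untested were Il1a, Il6, Il12b, Ptgs2, Ifnb1, Acod1 and Marco, too low to pass the filter, and Il10 and Nos2 were not called. The chemokine Ccl5 rose from 0.363 ± 0.0948 to 7.94 ± 2.24 CPM and Cxcl10 from 2.77 ± 0.811 to 16.7 ± 0.670 CPM (log2 fold changes 4.44, SE 0.29, and 2.60, SE 0.19). Ccl4 rose from 0.0287 to 1.63 CPM, on 0 to 2 counts a library in WT.

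Of 18 genes grouped with Lbp as acute-phase genes, 13 were tested, 9 rose and 1 fell, with a median of 1.48. The classical liver genes Saa1, Saa2, Crp and Apcs were, with Saa4, too low to test. Saa3, the serum amyloid A of fat and macrophages, was at 0 or 1 count in each WT library and at 8 to 30 counts in ANKO, and its log2 fold change of 5.90 (SE 0.57) became 4.19 (SE 1.66) with the muscle covariate, no longer called. Cp, ceruloplasmin, rose from 44.8 ± 6.02 to 125 ± 9.58 CPM (log2 fold change 1.48, SE 0.11), Orm2 by 3.34 (SE 0.28) and Ptx3 by 3.41 (SE 0.32). Hp, haptoglobin, fell from 681 ± 233 to 406 ± 81.6 CPM (log2 fold change -0.74, SE 0.24, adjusted p = 0.0226). That call was lost with the replicate number as a block (-0.70), without WT4 (-0.51), without ANKO4 (-0.63) and without WT3 and WT4 (-0.35), and the value was 0.05 with the muscle covariate.

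**Figure D5:**
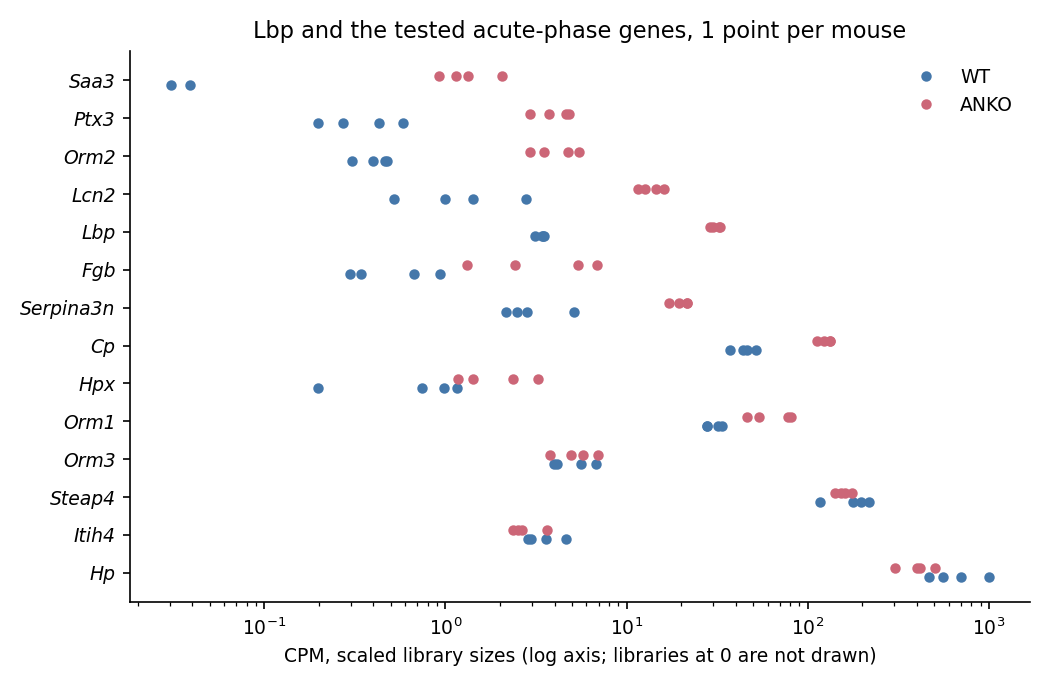
Lbp and the 13 tested acute-phase genes in CPM on a log axis, ordered by fold change, with 1 point per mouse and libraries at 0 not drawn. Lbp sits at 3.11 to 3.51 CPM in WT and at 28.9 to 32.8 CPM in ANKO, and Hp is the called gene that lies lower in ANKO.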

How the data were processed

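Total RNA of flash-frozen brown adipose tissue was depleted of ribosomal RNA with Ribo-Zero Gold, per the labels' protocols. STAR 2.0.4b was the aligner and featureCounts 1.45 of Subread the counter, on GRCm38, per the submitters' processing notes. For the annotation release, strand and multiply mapping reads, settings were not given in the sources used here. Antisense genes and close paralogs may thus share reads. No exon of the 10 genes overlaps another annotated gene.

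Per the file headers, the authors deposited a whole-number count for each gene and library, with its coordinates and length. The deposited CPM is the count scaled to 1e+06 counts in the table, and the deposited RPKM is that CPM per kb of length. Only counts entered tests. The CPM and RPKM printed were recomputed on scaled library sizes. Symbols came from GENCODE M21, which matched 40340 of 41388 IDs. The 355 rRNA rows, 2.83% to 3.53% of counts in WT and 0.801% to 1.13% in ANKO, were left out.

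Libraries were grouped by title and genotype label, 4 WT and 4 ANKO mice. No 2 libraries agreed within sampling noise (lowest chi-square per degree of freedom 6.63). edgeR 4.0.16 in R 4.3.3 was used with filterByExpr, TMM and a robust quasi-likelihood fit without covariates, adjusted by Benjamini-Hochberg over 16705 genes and called under 0.05. Standard errors came from the F statistic. The test was tried on simulated data. Floors of 3 counts cover counting error only.

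The 10 genes, the pathway lists, the marker lists and the motifs were chosen with earlier results of these data known. Named genes are the 10, the other 3 receptors, Nampt, Cd14, Ly96, Unc93b1, Myd88, Ticam1 and Saa3, up to 3 called genes per list and direction with the smallest p, and the 3 genes whose within-group pattern was most like each of 3 patterns. Genes named as untested or not called, and marker genes, were named outside this rule after their values were seen. Alternatives were other scalings and filters, DESeq2 1.42.0, limma-voom (limma 3.58.1), a replicate block, protein-coding nuclear genes, a muscle covariate and each library left out. Thinning and leaving out a pair of WT libraries were added after seeing the data. Same-numbered libraries did not deviate together, so the numbers were not treated as pairs.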

Additional observations from a re-analysis of the deposited data

Results flagged for a closer look

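In 132 groups of 4 libraries, for 66 named genes, 8 held a library that lay apart from the other 3 by Dixon's test, which flags about 1 in 20 groups by chance. Among the receptors, Tlr1 was at 8.45 CPM in ANKO4, above 5.70 to 6.15 CPM in the other ANKO libraries. Tlr12 was at 0.0915 CPM in WT3, below 0.194 to 0.205 CPM. Cd14 was at 4.62 CPM in WT4, below 6.29 to 6.32 CPM. Nampt was at 571 CPM in WT3, above 484 to 495 CPM. Nfkb2 was at 21.1 CPM in WT3, below 28.0 to 29.3 CPM, and Nfkbiz at 60.3 CPM in WT4, above 42.4 to 44.9 CPM. Of the genes patterned like the surface receptors, 2310030G06Rik was at 5.10 CPM in ANKO4, above 2.37 to 2.84 CPM, and Dtymk at 20.5 CPM in ANKO4, above 17.5 to 17.9 CPM.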

How the results depend on the processing

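Of 1313 gene values under alternatives, 1253 kept their direction and side of the threshold. Genes called numbered 9726, but 4284 with the muscle covariate and 5531 after thinning (8942 to 10467 with 1 library left out). Pathway calls numbered 76, but 49 with the covariate (71 to 80 with 1 library left out). Muscle level and genotype were correlated (r = 0.83, n = 8), so their effects cannot be told apart well. The 10 genes, selected on this contrast, kept their sign wherever tested. Tlr3 was at 0.28 with the covariate and 0.59 after thinning, neither past the threshold, and Tlr6 was too low to test after thinning. Tlr5 was called with DESeq2, limma-voom, the block, without WT1, and without WT1 and WT2. Its log2 fold change was 0.02 (SE 0.61) with the covariate and 0.45 (SE 0.33) without WT3 and WT4, not called in either. With the covariate 16 of the 66 named genes lost their call, and Hp lost it with a change of sign. Called genes with it numbered 1 of the 3 other receptors (2 without it), 4 of 8 co-receptors (7), 2 of 6 adaptors (5), 4 of 13 NF-kappa-B genes (7), 6 of 13 response genes (11) and 6 of 13 acute-phase genes (10). After thinning they numbered 0 of 1 other receptor, 2 of 4 adaptors and 6 of 7 response genes tested. Negative regulators called numbered 8 of 15 with the covariate and 8 of 14 after thinning, against 12 of 15 in the main fit. With upper-quartile scaling 59.1% of calls were higher, against 52.5%.

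Signs changed for Ly96, to 0.40 with the covariate, 0.27 after thinning and 0.12 without WT3 and WT4 (without WT1 and WT2 it was -0.52 and called lower, adjusted p = 0.0412), and for Hp, to 0.053 with the covariate. They also changed for Nr2c2 (-0.023 without WT1 and WT2), Zfp748 (-0.00249 with no filter, -0.024 without WT2, -0.00436 without ANKO4, up to 0.11 without ANKO1, and -0.091 without WT1 and WT2), Dtymk (0.33 after thinning) and Dmxl2 (0.00124 with upper-quartile scaling). The cause of these sign changes was not tested. On the general macrophage markers every log2 difference was lowered by the same amount, because all genes in a library share the base. Tlr6, Tlr7 and Lbp changed sign, to -0.35, -0.32 and -0.24. Tlr1, Tlr2, Tlr3 and Tlr4 kept theirs, at 0.46, -1.10, -2.60 and -2.37, as did Tlr8, Tlr9 and Tlr13, at 0.38, 0.29 and 0.998.

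Same-numbered libraries correlated at 0.13, -0.01, 0.08 and -0.06 after group means were taken off. With the replicate block 9239 genes and 73 pathway genes were called. Depth limits Tlr1, Tlr6 and Tlr9 most in WT.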
